A study of Mus musculus with 32 samples.

Results

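The phase II conjugation enzymes measured here are the 55 genes, of 24646 in all, whose symbols name a soluble glutathione S-transferase (*Gsta*, *Gstk*, *Gstm*, *Gsto*, *Gstp*, *Gstt* or *Gstz*), a microsomal glutathione S-transferase (*Mgst*), a UDP-glucuronosyltransferase or UDP-glycosyltransferase (*Ugt1a*, *Ugt2a*, *Ugt2b* or *Ugt3a*) or a sulfotransferase (*Sult*). The set was defined by symbol alone, without a cut on any measured value. Earlier results of these data were known when it was chosen. The set holds 21 soluble glutathione S-transferases (GST), 3 microsomal ones (MGST), 13 UDP-glycosyltransferases (UGT) and 18 sulfotransferases (SULT). Each of the 55 was read by a single probe set.

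These enzymes attach a polar group to drugs, hormones, bile pigments and reactive products of lipid oxidation, which makes them easier to export. GSTs and MGSTs use glutathione, UGTs use UDP-sugars made from glucose, and SULTs use the sulfate donor PAPS. The liver is the best known site of all 3 reactions, whereas adipocytes are known for GSTA4, which conjugates the lipid peroxidation product 4-hydroxynonenal. Several GST genes respond to the transcription factor NRF2 through antioxidant response elements, and many hepatic UGT and SULT genes respond to the xenobiotic receptors PXR and CAR, to PPARα and to the liver factors HNF1 and HNF4.

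RNA came from male mice, 20 weeks old and of C57BL/6J background, that either lacked *Gpr146* in the whole body (knockout, KO) or were their wild-type (WT) littermates. All mice, of both genotypes, had received a high-fat diet (HFD) for 3 months and were fasted overnight before tissues were taken. GPR146 is a G protein-coupled receptor, and its gene was disrupted in all cells by CRISPR/Cas9, so that no single cell type carries the deletion alone. Liver and 3 fat depots, namely the epididymal (eWAT) and inguinal (iWAT) white depots and brown fat (BAT), of 4 mice per genotype were hybridized to Affymetrix Mouse Gene 2.1 ST arrays, 32 arrays in all. Values are log2 expression, so that a difference of 1 is a doubling, and the 4 tissues were deposited as separate tables. Whether the tables were normalized together is not given in the sources used here, and their medians ranged from 2.84 in BAT to 3.69 in iWAT. Probe sets differ in brightness, so single genes are not ranked against each other by level here. The median gene of a table serves as a rough mark, and the side on which a gene lies also depends on its probes.

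In the KO, *Gpr146* was below every WT array in all 4 tissues. It was lower by 1.77 in liver and by 1.16 to 1.55 in the fat depots on the log2 scale. By the limma test used below, *Gpr146* passed in liver (adjusted p = 6.6e-06) and eWAT (adjusted p = 0.00823). It did not pass in iWAT (adjusted p = 0.221) or BAT (adjusted p = 0.0727), although the deleted gene was lower there. A lack of calls in iWAT and BAT therefore does not show that a gene was unchanged. The titles of the 4 KO liver samples carry both genotypes, and their genotype, description and source fields say KO. Arrays of a tissue correlated by 0.939 to 0.995 over all genes. Hepatocyte markers were all above the table median in liver, adipocyte markers in the 3 fat depots and brown adipocyte markers in BAT. In iWAT, summed B cell markers ranged from 5.66 to 10.43 on the log2 scale, high in WT replicates 1 and 2 and in KO replicates 2 and 4. In BAT, summed muscle markers ranged from 5.71 to 10.99, high in WT replicates 2 and 3 and in KO replicate 2. Both sets of arrays hold mice of both genotypes.

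In WT mice the 4 families were spread differently over the tissues. Taking the median gene of each table as a mark, 37 of the 55 enzymes lay above it in liver, 22 in eWAT, 19 in iWAT and 18 in brown fat. UGTs were the most liver-restricted family, with 12 of 13 above the mark in liver, 2 in eWAT (*Ugt1a1* and *Ugt1a10*), 1 in iWAT and 0 in BAT. GSTs were found above the mark in every tissue, 18 of 21 in liver, 15 in eWAT and 14 in each of iWAT and BAT, and 12 of them in all 4. All 3 MGSTs were above it in each fat depot, whereas *Mgst2*, whose product also makes leukotriene C4, was below it in liver, at 2.51 ± 0.14 (SD, n = 4) with a table median of 3.02. Among SULTs, *Sult1a1*, which sulfates small phenols, was the only member above the mark in all 4 tissues, and 12 of 18 were above it in none.

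Single genes showed depot patterns of their own. *Gsta3*, an alpha-class GST known in mice for conjugating the aflatoxin epoxide, had a WT mean of 9.41 in liver, 4.73 in eWAT, 4.18 in iWAT and 1.69 in BAT. *Gsta4* had a WT mean of 7.13 in liver, 4.72 in eWAT, 5.69 in iWAT and 7.48 in BAT. *Sult1e1*, the estrogen sulfotransferase, had a WT mean of 5.12 in eWAT and 3.35 in iWAT, and of 1.81 and 1.67 in liver and BAT. In BAT, *Gsta3* was below the table median and *Gsta4* above it. Because it is not known whether the tables were normalized together, these levels are given side by side without a test.

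**Figure D1:**
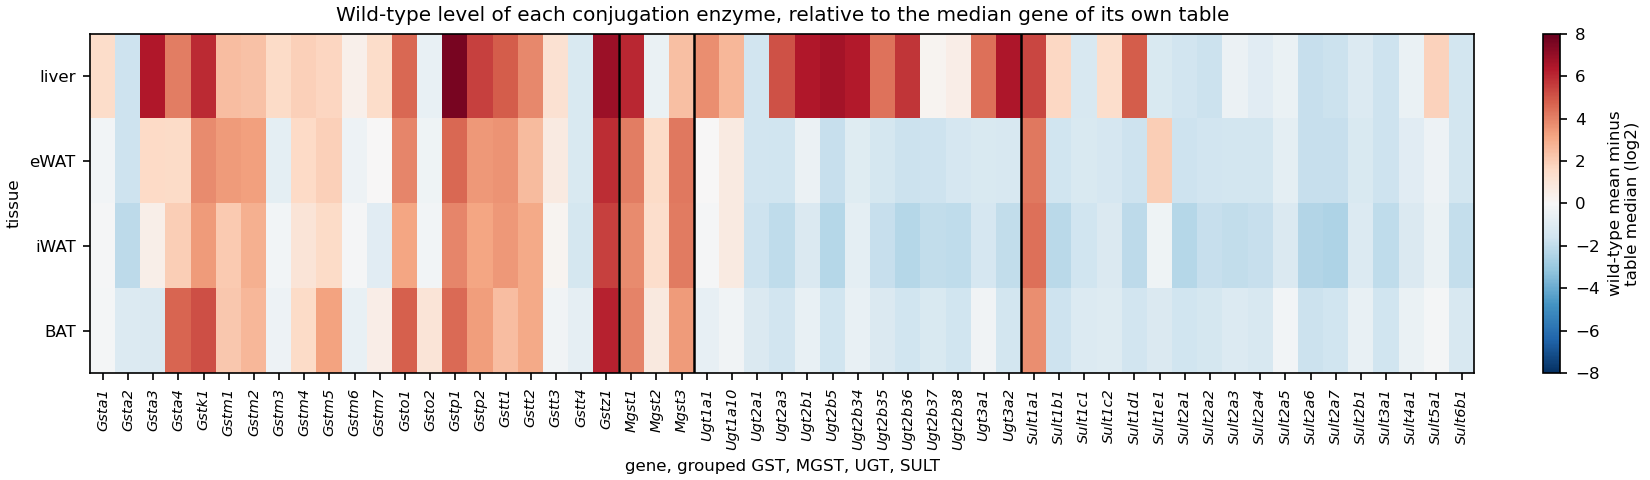
Mean log2 level of each enzyme in the 4 WT mice of a tissue minus the median of all genes in that tissue's table (colour scale), for 55 genes (columns, grouped by family) and 4 tissues. Colours are to be read down a column only, since probe sets differ in brightness. UGT columns are red in liver and mostly blue in fat, and GST columns are red in several tissues.

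Calls were found in eWAT only. There 9 enzymes rose and 1 fell at an adjusted p below 0.05 (limma, adjusted over all 24646 genes). In liver, iWAT and BAT no enzyme passed. Over all genes the same test called 0 in iWAT and 7 in BAT, so the counts do not rank the tissues by size of change. In a direct test given below, 0 enzymes differed between eWAT and iWAT, and eWAT was not tested against BAT. The risers in eWAT were the alpha-class GSTs *Gsta3* and *Gsta4*, *Gstt2*, *Gstm5*, all 3 MGSTs, and the sulfotransferases *Sult1a1* and *Sult2a4*, and the gene that fell was *Gstm1*. Over all genes of eWAT, 15.2% of the genes passed the test, 4.57% higher and 10.7% lower, so that more genes of this depot fell than rose, while 9 of the 10 enzymes that changed rose. Of all genes that passed, 30.0% rose, and after a further quantile normalization 48.9%, when 12 enzymes rose and 1 fell. The median change of the 55 enzymes was 0.08 and that of all genes 0.03, and 38 of the 55 changed by more than 0, against 56.5% of all genes. Over the 8 arrays 34 of the 55 were below the table median, and 15 of the other 21 changed by more than 0. At an unadjusted p below 0.05, 17 enzymes were higher and 3 lower, against 12.4% and 17.4% of all genes. In 10 enzymes all 4 KO mice lay above all 4 WT mice and in 1 all lay below, against 8.63% and 13.0% of all genes.

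**Figure D2:**
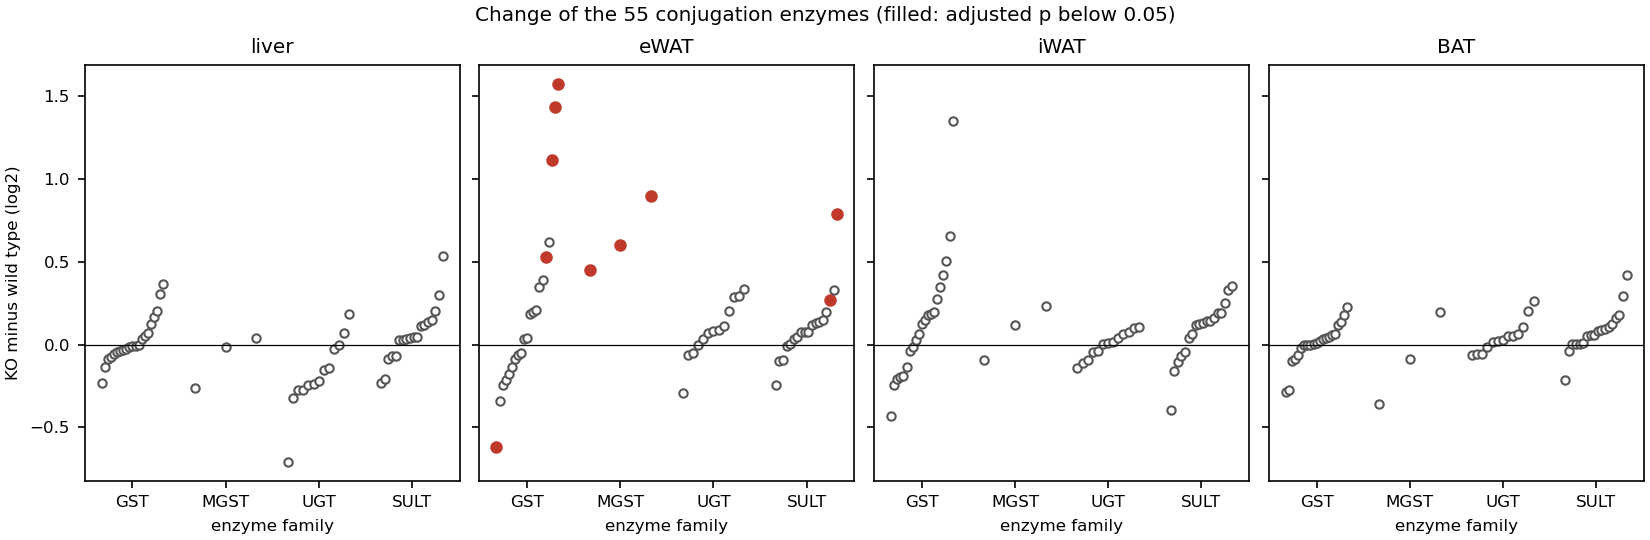
Log2 difference of KO minus WT means (vertical axis) for each of the 55 enzymes, by family and tissue, with enzymes at an adjusted p below 0.05 filled. Filled points occur only in eWAT, where 9 lie above 0, up to 1.57, and 1 lies at -0.62.

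The largest rises in eWAT were in alpha-class GSTs. *Gsta3* measured 5.29, 4.77, 4.52 and 4.35 in the WT mice and 6.97, 5.59, 5.49 and 7.14 in the KO mice, in the order of the mouse numbers. Every KO mouse was above every WT mouse, and KO replicates 1 and 4 stood well above replicates 2 and 3. The mean rose from 4.73 ± 0.41 to 6.30 ± 0.88 (SD, n = 4 each), a 2.97-fold change (log2 1.57, SE 0.39, adjusted p = 0.0266). *Gsta4* measured 5.13, 4.69, 4.85 and 4.19 in WT and 6.55, 5.32, 5.89 and 6.82 in KO mice. Here too the groups did not overlap and KO replicates 1 and 4 were highest. Its mean rose 2.70-fold (log2 1.43, SE 0.32, adjusted p = 0.0184). The other alpha-class members, *Gsta1* and *Gsta2*, had differences of -0.05 (95% interval -0.32 to 0.21) and -0.09 (-0.38 to 0.20), and both were below the table median in eWAT.

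*Gstt2*, of the theta class, which acts on small halogenated compounds and sulfate esters, measured 5.60, 5.45, 5.85 and 5.75 in WT and 7.005, 6.27, 6.56 and 7.28 in KO eWAT. All KO mice were higher, and the mean rose 2.16-fold (log2 1.11, SE 0.20, adjusted p = 0.0111). Its neighbour *Gstt1* differed by 0.03 (95% interval -0.42 to 0.48). In the GRCm38.p6 gene order *Gstt3*, *Gstt1*, *Gstt4* and *Gstt2* follow each other on chromosome 10 with no other protein-coding gene between them, and of these 4 only *Gstt2* passed the test in eWAT.

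The mu class moved in both directions. *Gstm1*, a major GST of many tissues, measured 6.49, 6.71, 6.52 and 6.54 in WT and 5.85, 6.27, 5.83 and 5.85 in KO eWAT. All KO mice were lower, and KO replicate 2 lay nearest to the WT mice. The mean fell by 0.62 on the log2 scale, a 1.53-fold decrease (SE 0.11, adjusted p = 0.0114). *Gstm5*, which lies at the other side of the same gene cluster, measured 5.27, 5.03, 5.05 and 4.88 in WT and 5.92, 5.69, 5.17 and 5.57 in KO mice. KO replicate 3 fell within the WT range, and the mean rose by 0.53 (SE 0.15, adjusted p = 0.0456). The cluster runs *Gstm5*, *Gstm7*, *Gstm6*, *Gstm3*, *Gstm2*, *Gstm1* and *Gstm4* on chromosome 3 in GRCm38.p6, and the 5 members other than *Gstm1* and *Gstm5* did not pass. *Gstm7* differed by -0.34 (adjusted p = 0.139), with a mean above the table median in WT mice and below it over all 8 mice, and *Gstm2* by -0.24 (adjusted p = 0.405). Mu-class genes are close in sequence, and how far their probe sets cross-hybridize was not tested.

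All 3 microsomal GSTs rose in eWAT. These membrane proteins reduce lipid peroxides, and the MGST2 enzyme also conjugates leukotriene A4. *Mgst2* measured 4.85, 4.47, 5.04 and 4.32 in WT and 5.82, 5.05, 5.42 and 5.97 in KO mice, a rise of 0.90 (SE 0.22, adjusted p = 0.0257). The groups met end to end, with KO replicate 2 just above WT replicate 3. *Mgst1* measured 7.27, 7.11, 7.33 and 7.20 in WT and 8.003, 7.52, 7.53 and 8.25 in KO mice, a rise of 0.60 (SE 0.16, adjusted p = 0.0351). *Mgst3* measured 7.53, 7.35, 7.27 and 7.23 in WT and 7.996, 7.67, 7.59 and 7.93 in KO mice, a rise of 0.45 (SE 0.11, adjusted p = 0.0274). In both genes all 4 KO mice were above all WT mice, with KO replicates 1 and 4 again the highest.

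Of the sulfotransferases in eWAT, *Sult1a1* rose most. It measured 7.58, 7.28, 7.60 and 6.95 in WT and 8.20, 8.02, 8.10 and 8.23 in KO mice. The KO mice lay within a narrow band above all WT mice, and the mean rose 1.72-fold (log2 0.78, SE 0.14, adjusted p = 0.0110). *Sult2a4*, of the hydroxysteroid sulfotransferases, rose by 0.27 (adjusted p = 0.0415), from 1.71 ± 0.08 to 1.98 ± 0.08 (SD, n = 4 each), at a level below the table median of 3.15, and its near-identical *Sult2a* neighbours make its identity uncertain. *Sult1e1* measured 4.90, 5.14, 5.19 and 5.24 in WT and 4.45, 5.46, 4.82 and 4.76 in KO eWAT. KO replicate 2 was the highest of all 8 mice and the other 3 KO mice were the lowest. The difference was -0.24 (95% interval -0.67 to 0.18, adjusted p = 0.423), and without KO replicate 2 it was -0.44 and passed (adjusted p = 0.0282).

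The remaining enzymes did not pass in eWAT. The 13 UGTs differed by -0.29 to 0.33, and 11 of them were below the table median over the 8 arrays. *Gstz1*, the zeta-class enzyme of tyrosine breakdown, came closest among the GSTs above the median, with WT values of 9.39, 8.86, 9.37 and 8.63 and KO values of 9.84, 9.61, 9.31 and 9.98, a difference of 0.62 (adjusted p = 0.0679). *Gstk1*, of mitochondria and peroxisomes, differed by 0.39 (adjusted p = 0.175), *Gstp1* by 0.21 (adjusted p = 0.181) and *Gsto1*, a thiol transferase, by -0.22 (adjusted p = 0.237). *Gstz1*, *Gstk1* and *Gstp1* passed after a further quantile normalization (adjusted p = 0.0262, 0.0417 and 0.0272).

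**Figure D3:**
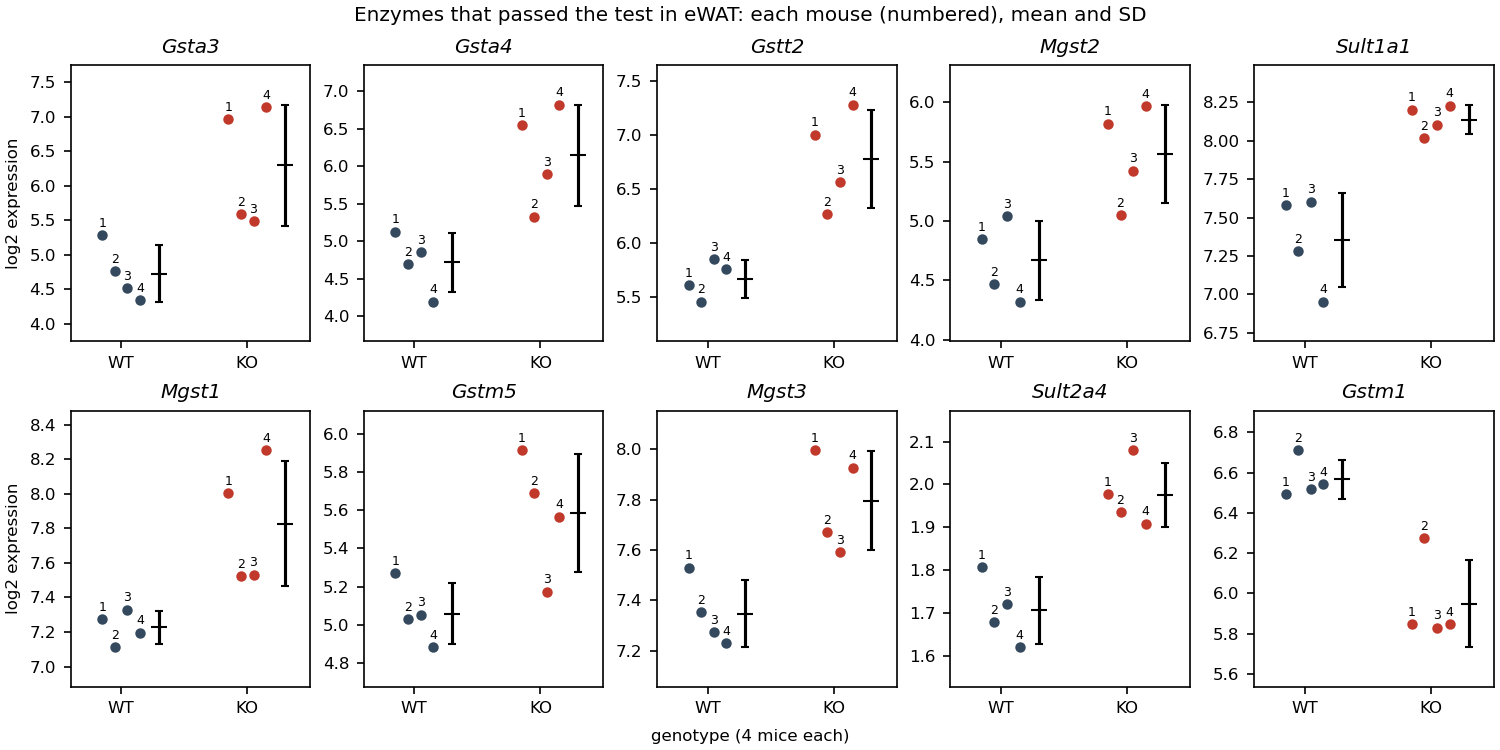
Log2 expression (vertical axis, own scale per panel) of the 10 enzymes that passed the test in eWAT, with 1 numbered point per mouse and the mean and SD of each group of 4. Groups are apart in all panels but *Gstm5*, where KO replicate 3 falls among the WT mice, and KO replicates 1 and 4 are high in most panels that rise.

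The calls were not equally firm. *Gstt2*, *Sult1a1* and *Gstm1* passed with each of the 8 arrays left out in turn. *Gsta4* passed in 5 of the 8 fits, *Mgst2* in 4, *Gsta3* and *Mgst3* in 3, *Mgst1* in 2 and *Gstm5* and *Sult2a4* in 1. The number of enzymes called was 7, 3, 5 and 3 without WT replicates 1, 2, 3 and 4, and 3, 11, 12 and 5 without KO replicates 1, 2, 3 and 4. Over all genes the share called ranged from 5.88% without WT replicate 2 to 22.0% without KO replicate 2. In an exact permutation test over the 70 relabelings of 4 mice against 4 (two-sided), 11 of the 55 enzymes reached p = 0.0286, the smallest that this design allows, as did 21.6% of all genes.

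Cell-type markers moved in the same arrays. In eWAT all 11 macrophage markers fell, and their summed level was 12.79 to 12.91 in WT mice and 10.12, 12.46, 11.10 and 10.41 in KO replicates 1 to 4 on the log2 scale. None of the 11 was below the table median. Of 8 adipocyte markers 7 rose and 1, *Lep*, fell, with summed levels of 12.87 to 12.98 in WT and 13.20 to 13.45 in KO mice. Of 7 fibroblast and progenitor markers 6 fell (11.42 to 11.69 in WT, 10.41 to 11.32 in KO), and of 6 mesothelial markers 2 fell (7.65 to 9.33 in WT, 7.19 to 7.68 in KO). KO replicate 4 held the highest value of the 4 KO mice in 6 of the 9 enzymes that rose and KO replicate 1 in 2 of them. Both had low summed macrophage markers and high summed adipocyte markers, at 13.45 each, with 13.22 and 13.20 in KO replicates 2 and 3. KO replicate 2 held the lowest value in 5 of the 9. Of the KO mice it was highest in macrophage markers and in fibroblast and progenitor markers (11.32), and lowest in endothelial markers (10.44). In whole tissue, fewer cells of a type and less RNA per cell cannot be told apart, and the part of these markers in the changes of the enzymes was not tested. Markers of epididymal epithelium were below the table median in all 8 of 8 genes, and hepatocyte markers in 4 of 6.

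Promoters are shown of some enzymes that rose in eWAT (*Gsta3*, *Gstm5*, *Mgst1* and *Sult1a1*) and of *Gstm1*, which fell. That of *Ugt3a1*, whose change differed between eWAT and liver, is added. They are shown because NRF2 and liver factors are known to act at short motifs near the start of such genes. RefSeq (GRCm38.p6) promoters, from 250 bases before to 50 after a start, were matched for 48 of the 55 enzymes, with 59 starts. *Gsta4*, *Gstt2*, *Sult2a1*, *Sult2a2*, *Sult2a7*, *Sult4a1* and *Ugt3a2* were not matched. They were searched on both strands for the antioxidant response element core TGACNNNGC, the HNF1 core GTTAAT and the PPAR response element (AGGNCA, any base, AGGNCA), none of which overlapped another in the promoters printed. Sequences run 5′ to 3′ on the strand of the gene, with each match to the antioxidant response element core (in *Gsta3*, *Gstm5* and *Mgst1*) or the HNF1 core (in *Gsta3*, *Sult1a1* and *Ugt3a1*) in capitals.
Gsta3, chr1:21240335-21240634, plus strand: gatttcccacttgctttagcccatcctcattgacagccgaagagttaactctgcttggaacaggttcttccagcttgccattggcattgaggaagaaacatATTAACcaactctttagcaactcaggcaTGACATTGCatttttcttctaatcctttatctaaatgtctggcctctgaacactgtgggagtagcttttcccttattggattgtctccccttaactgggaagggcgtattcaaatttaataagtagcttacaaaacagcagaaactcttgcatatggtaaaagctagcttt
Gstm5, chr3:107895604-107895903, plus strand: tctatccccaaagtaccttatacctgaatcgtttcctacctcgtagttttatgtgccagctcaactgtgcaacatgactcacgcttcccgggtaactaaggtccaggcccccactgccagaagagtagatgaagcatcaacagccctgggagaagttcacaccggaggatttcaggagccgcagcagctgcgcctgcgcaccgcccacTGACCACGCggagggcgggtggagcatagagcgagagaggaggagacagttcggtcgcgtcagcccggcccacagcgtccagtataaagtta
Mgst1 (first start), chr6:138140277-138140576, plus strand: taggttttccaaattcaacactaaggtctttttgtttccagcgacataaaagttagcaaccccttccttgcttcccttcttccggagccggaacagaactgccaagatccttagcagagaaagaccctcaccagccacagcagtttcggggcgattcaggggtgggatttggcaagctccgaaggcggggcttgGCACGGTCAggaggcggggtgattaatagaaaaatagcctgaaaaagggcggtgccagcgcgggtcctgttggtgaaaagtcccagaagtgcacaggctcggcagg
Gstm1 (second start), chr3:108017769-108018068, minus strand: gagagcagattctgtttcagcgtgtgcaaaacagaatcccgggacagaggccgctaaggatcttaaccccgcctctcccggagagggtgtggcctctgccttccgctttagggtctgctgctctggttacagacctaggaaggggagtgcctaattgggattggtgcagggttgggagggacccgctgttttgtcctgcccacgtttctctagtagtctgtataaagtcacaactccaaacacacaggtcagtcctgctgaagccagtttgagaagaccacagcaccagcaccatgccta
Sult1a1, chr7:126676369-126676668, minus strand: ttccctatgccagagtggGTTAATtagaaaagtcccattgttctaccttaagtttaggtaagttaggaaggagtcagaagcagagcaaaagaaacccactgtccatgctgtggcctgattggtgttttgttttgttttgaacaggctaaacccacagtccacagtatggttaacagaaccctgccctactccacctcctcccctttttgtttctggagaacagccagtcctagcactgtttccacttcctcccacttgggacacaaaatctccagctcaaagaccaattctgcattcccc
Ugt3a1, chr15:9279579-9279878, plus strand: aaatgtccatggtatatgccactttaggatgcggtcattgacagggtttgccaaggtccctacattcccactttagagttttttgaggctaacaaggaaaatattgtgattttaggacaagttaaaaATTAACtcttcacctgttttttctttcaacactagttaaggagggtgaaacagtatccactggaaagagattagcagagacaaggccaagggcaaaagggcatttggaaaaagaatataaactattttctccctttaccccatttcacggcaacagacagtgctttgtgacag

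*Gsta3*, *Gstm5* and *Mgst1*, which rose in eWAT, each held 1 antioxidant response element core. It read TGACATTGC at positions -121 to -113 from the start in *Gsta3* and TGACCACGC at -42 to -34 in *Gstm5*, and on the opposite strand GCACGGTCA at -56 to -48 in *Mgst1*. *Gstm1*, which fell, held none in these windows, nor did *Mgst2*, *Mgst3*, *Sult1a1* and *Sult2a4*, which rose. The second start of *Mgst1* held none either. In all, 4 of the 59 starts held the core, the fourth in *Gstm7*, which is 6.78% against 12.4% of 32851 promoters. The PPAR response element was in 0 of the 59 and in 0.381% of all promoters. The HNF1 core was in 11 of the 59 (18.6%) and in 7.1% of all promoters, in *Gsta3*, *Sult1a1*, *Sult1d1*, *Ugt1a1*, *Ugt1a10*, *Ugt2a3* and *Ugt3a1*, which stood above the table median in WT liver, and in *Sult2a3*, *Sult2a4*, *Sult2a5* and *Sult2a6*, which did not. The *Sult2a* genes are near-identical neighbours, so their matches are not independent of each other. A match is a run of letters and was not tested for binding.

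Other genes of the pathway were counted from lists chosen for their roles. By the same test in eWAT, 4.57% of all genes rose and 10.7% fell. In eWAT, of 10 NRF2 targets outside the families, 6 fell and 0 rose, among them *Hmox1*, heme oxygenase (-2.19, adjusted p = 0.00971), *Akr1b8*, an aldehyde reductase (-1.43, adjusted p = 0.0134), and *Txnrd1*, thioredoxin reductase (-0.67, adjusted p = 0.0196). The median of the 10 was -0.58, against 0.03 over all genes. The gene of NRF2 itself, *Nfe2l2*, fell by 0.61 (adjusted p = 0.0184), and *Ppara* rose by 0.49 (adjusted p = 0.0205), the only 2 of 12 regulators that passed. Of 10 genes of glutathione supply, *Gclm*, a subunit of the first enzyme of glutathione synthesis, fell by 0.83 (adjusted p = 0.0266) and *Cbs* rose by 0.50 (adjusted p = 0.0404). Of 9 genes that supply UDP-glucuronate or PAPS, 3 fell and 0 rose: *Ugp2*, *Slc35d1* and *Slc35b3*, by 0.48, 0.42 and 0.60.

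Among genes that act after or beside conjugation, 1 of 7 exporters fell in eWAT, against 10.7% of all genes. It was *Abcc5*, which fell by 0.30 (adjusted p = 0.0440). Of the 3 enzymes measured that remove conjugates, *Gusb*, the lysosomal β-glucuronidase, fell by 1.60 (adjusted p = 0.0157) and *Arsa*, a lysosomal sulfatase, by 0.31 (adjusted p = 0.0335). Among phase II enzymes outside the 4 families, *Inmt*, a methyltransferase of indoleamines, rose by 0.78 (adjusted p = 0.0195). These falls stand beside the fall of the macrophage markers given above, whose part in them was not tested.

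In liver, where most of the families are known to act, no enzyme passed the test, against 0.661% of all genes. At an unadjusted p below 0.05, 4 enzymes were higher and 4 lower, against 5.79% and 7.48% of all genes. The median difference was -0.01, with 0.01 over all genes. In 3 enzymes (*Sult1a1*, *Sult1b1* and *Gstp2*) all KO mice lay above all WT mice and in 3 (*Ugt2b34*, *Ugt3a1* and *Ugt3a2*) all lay below, against 3.62% and 4.16% of all genes.

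*Sult1a1* had the smallest p in liver. It measured 8.50, 8.31, 8.47 and 8.10 in WT and 8.95, 9.10, 8.65 and 8.80 in KO livers, so that the groups did not overlap. The difference was 0.53 (SE 0.12, adjusted p = 0.0718), and with a trended and robust prior it passed (adjusted p = 0.0493). *Sult1a1* was therefore the enzyme with the smallest p in both liver and eWAT. *Gstm7* measured 4.74, 4.36, 4.36 and 4.48 in WT and 5.04, 4.93, 4.57 and 4.86 in KO livers, a difference of 0.36 (adjusted p = 0.206) with 1 KO liver inside the WT range. *Sult1b1*, which sulfates thyroid hormone, differed by 0.30 (adjusted p = 0.256), with KO values of 5.29, 4.88, 4.87 and 4.78 above WT values of 4.73, 4.64, 4.60 and 4.65.

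The UGTs leaned downwards in liver without passing. Their difference was above 0 in 2 of 13, against 53.1% of all genes, and their median was -0.22. The lowest, -0.71, was that of *Ugt2b37*, whose mean over the 8 livers was below the table median. Its groups overlapped (exact permutation test, p = 0.257). *Ugt2b34*, of the family that glucuronidates steroids and bile acids, measured 9.37, 9.34, 9.40 and 9.35 in WT and 9.16, 8.79, 9.28 and 8.94 in KO livers, a difference of -0.32 (SE 0.10, adjusted p = 0.199). The WT livers lay within a very narrow band, and the KO livers were spread below it. *Ugt3a1* measured 7.28, 7.29, 7.59 and 7.46 in WT and 7.11, 6.98, 7.21 and 7.23 in KO livers (-0.27, adjusted p = 0.233). *Ugt3a2*, its direct neighbour on chromosome 15, measured 9.42, 9.48, 9.39 and 9.59 in WT and 9.34, 9.11, 9.29 and 9.17 in KO livers (-0.25, adjusted p = 0.217). The *Ugt3a* enzymes use UDP-sugars other than UDP-glucuronate, and in both genes the groups were narrowly apart.

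*Ugt1a1*, which conjugates bilirubin, measured 6.58, 6.86, 6.78 and 6.70 in WT and 6.60, 6.26, 6.63 and 6.55 in KO livers. The groups overlapped and the difference was -0.22 (95% interval -0.44 to -0.003, adjusted p = 0.369). *Ugt2b1* and *Ugt2a3*, the 2 with a difference above 0, were at 0.07 (95% interval -0.28 to 0.42) and 0.18 (-0.01 to 0.38). *Ugt2b5* differed by -0.15 (-0.41 to 0.11). Genes of the *Ugt1a* locus share their last exons and *Ugt2b* genes are near copies, so that single members are uncertain and their differences are not independent of each other.

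**Figure D4:**
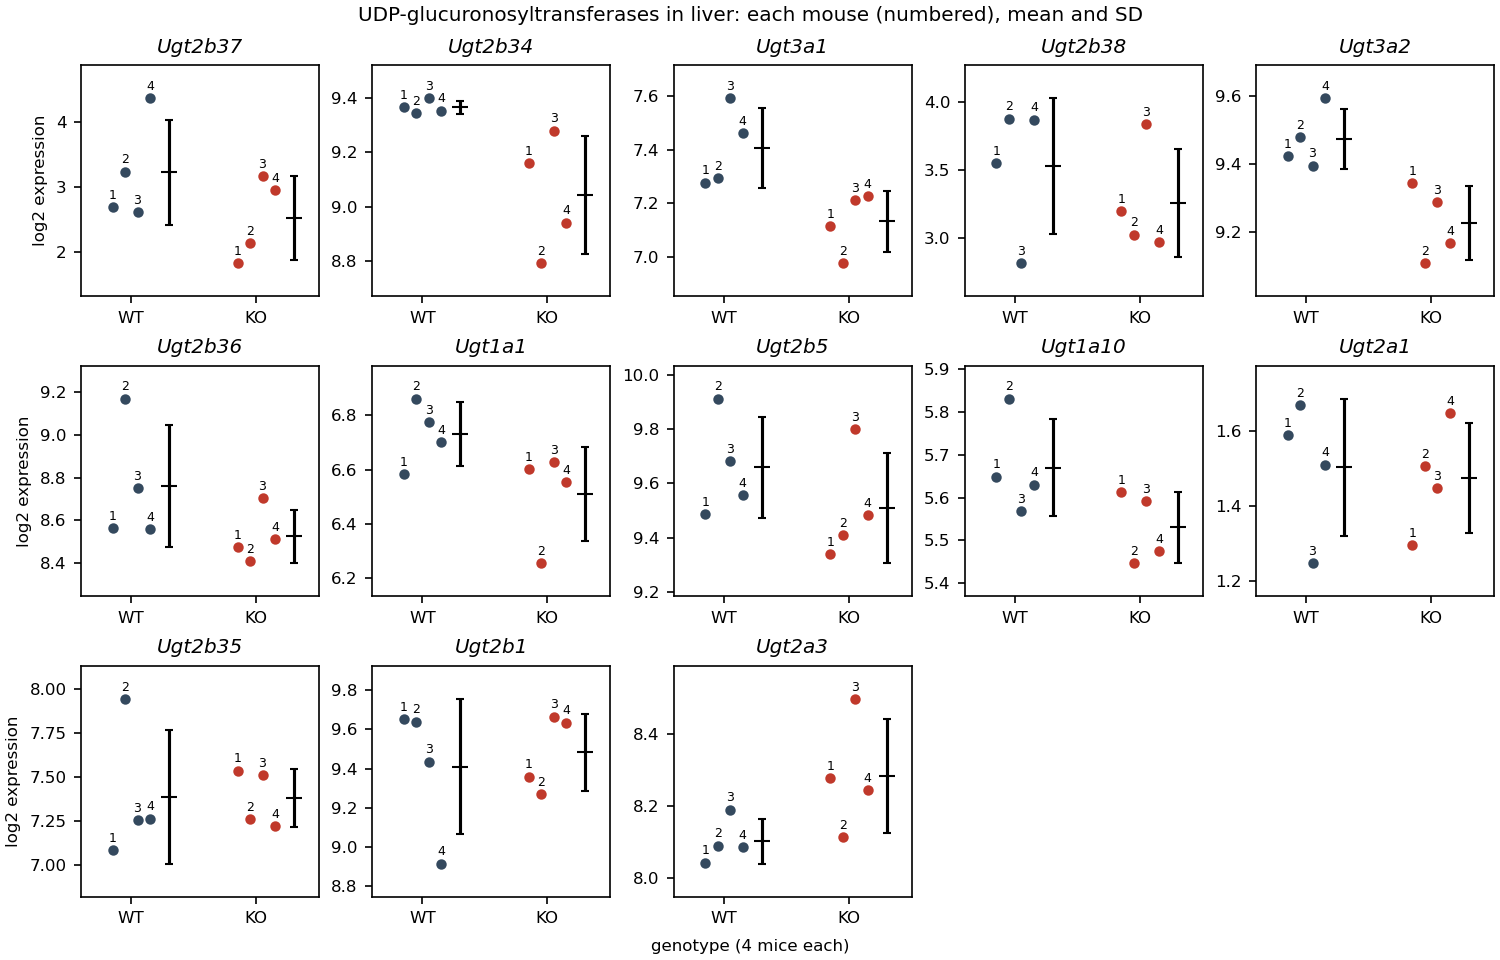
Log2 expression in liver (vertical axis, own scale per panel) of the 13 UGTs, ordered from the lowest to the highest difference, with 1 numbered point per mouse and the mean and SD of each group of 4. KO means are lower in 11 panels, and the groups are apart in *Ugt2b34*, *Ugt3a1* and *Ugt3a2* only.

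Apart from *Sult1a1*, the enzymes that rose in eWAT had differences in liver whose intervals include 0. *Gsta3* differed by -0.04 (95% interval -0.22 to 0.14), *Gsta4* by 0.05 (-0.58 to 0.68), *Gstt2* by 0.20 (-0.08 to 0.49), *Mgst1* by -0.01 (-0.21 to 0.18) and *Mgst2* by 0.04 (-0.16 to 0.24). *Mgst3* differed by -0.26 (-0.52 to 0.001). *Gstp1* and *Gstp2*, pi-class genes that lie side by side on chromosome 19 and can share probes, differed by 0.17 (adjusted p = 0.557) and 0.30 (adjusted p = 0.357).

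The other enzymes picked for their roles lay close to 0 in liver or had wide intervals. *Gstk1* differed by -0.06 (95% interval -0.25 to 0.13), *Gstz1* by -0.05 (-0.19 to 0.10), *Gsto1* by -0.08 (-0.27 to 0.11), *Gstt1* by -0.03 (-0.24 to 0.19) and *Gstm1* by -0.01 (-0.39 to 0.37). Among the SULTs above the mark in liver but not in fat, *Sult1d1*, which sulfates catecholamines, differed by 0.03 (-0.18 to 0.24), *Sult1c2* by -0.23 (-0.81 to 0.34) and *Sult5a1* by -0.21 (-0.48 to 0.06). *Sult2a1*, a sulfotransferase of bile acids and steroids, and *Sult2b1*, one of cholesterol, were below the table median in all 4 tissues. The *Sult2a* genes are known to be higher in female than in male mouse liver, and all mice here were male.

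Outside the families, 1 gene of the pathway lists passed in liver. *Abcc3*, which exports glucuronides to the blood, fell by 0.53 (adjusted p = 0.0288), with all 4 KO livers below all WT livers. *Abcg2*, an exporter of sulfates, differed by -0.49 (adjusted p = 0.050025, just over the threshold). No gene passed among the NRF2 targets, of which 9 of 10 were lower, nor among the regulators, glutathione supply, UDP-glucuronate and PAPS supply, deconjugating enzymes or other phase II enzymes. *Hmox1* differed by -1.62 (adjusted p = 0.0524), *Gclc*, the catalytic subunit of glutathione synthesis, by -0.62 (adjusted p = 0.127) and *Nr1i2*, which encodes PXR, by -0.41 (adjusted p = 0.145). Among cell-type markers, 3 of 5 endothelial (summed 7.30 to 7.52 in WT, 6.23 to 6.98 in KO), 2 of 7 fibroblast and progenitor (*Dcn* and *Lum*, 8.81 to 9.26 in WT, 8.27 to 8.70 in KO) and 2 of 8 adipocyte markers (*Cfd* and *Cidec*, 8.26 to 8.71 in WT, 7.78 to 8.42 in KO) fell, and 5 of 5 Kupffer cell markers had lower means without passing (7.79 to 9.11 in WT, 6.44 to 8.07 in KO). Of the 8 adipocyte markers, *Adipoq*, *Plin1* and *Lep* were below the table median in liver, and 3 of the 8 had differences above 0. Whether the 2 falls reflect adipocytes was not tested. The 11 macrophage markers were mixed in liver, 5 higher and 6 lower, with 0 passing. Bile duct epithelium markers had higher means in 5 of 5 without passing (6.75 to 7.09 in WT, 7.02 to 7.94 in KO), and 2 of them were below the table median. Hepatocyte markers, of which 0 of 6 passed, were at 13.49 to 13.56 in WT and 13.54 to 13.56 in KO livers. The part of these markers in the values of the enzymes in liver was not tested.

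In iWAT no enzyme passed, and neither did any gene (0%). At an unadjusted p below 0.05, 5 enzymes were higher and 0 lower, against 7.09% and 8.34% of all genes. In 4 enzymes all KO mice were above all WT mice and in 1 all were below, against 4.29% and 3.86% of all genes, and the difference was above 0 in 36 of 55, against 53.2%. Over the 8 arrays 36 of the 55 were below the table median, and the difference was above 0 in 12 of the other 19. *Gsta4* stood out with 5.84, 5.02, 6.24 and 5.67 in WT and 6.93, 6.76, 7.20 and 7.25 in KO mice. The groups did not overlap, and the mean was 2.54-fold higher in the KO (log2 1.35, 95% interval 0.81 to 1.88, adjusted p = 0.221). Without KO replicate 2 it passed (1.44, adjusted p = 0.0479), and it also passed when the 4 arrays with high B cell markers were left out, with 2 mice per genotype (1.11, adjusted p = 0.0446, 1 enzyme of 916 genes called). The fit with 4 arrays was chosen after seeing the data.

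*Gstm5* was also higher in KO iWAT, at 5.83, 5.55, 5.97 and 6.19 with 5.07, 4.77, 5.54 and 5.54 in WT mice (0.66, adjusted p = 0.235). Its groups met end to end. *Gstt4*, below the table median, was at 3.08, 2.79, 2.68 and 2.60 in KO and 2.14, 2.12, 2.53 and 2.34 in WT mice (0.51, adjusted p = 0.221). *Gstm1*, which fell in eWAT, differed by 0.03 in iWAT (95% interval -0.33 to 0.39). *Gstz1* differed by 0.35 (0.04 to 0.65, adjusted p = 0.286), *Gsta3* by 0.42 (-0.11 to 0.95), *Sult1a1* by 0.33 (-0.05 to 0.70), and *Mgst1*, *Mgst2* and *Mgst3* by 0.12, 0.23 and -0.09. All 11 macrophage markers had lower means in KO iWAT with 0 passing, and their summed level was 10.84 to 11.57 in WT and 9.70 to 10.97 in KO mice.

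In BAT no enzyme passed, against 0.0284% of all genes, and at an unadjusted p below 0.05, 0 were higher and 1 lower, against 5.25% and 7.44%. All KO mice were above all WT mice in 0 enzymes and below them in 1, against 3.31% and 3.92%, and the difference was above 0 in 38 of 55, against 50.8% of all genes. The enzyme that was lower was *Mgst2*, at 3.93, 3.44, 3.57 and 3.43 in WT and 3.10, 3.37, 3.24 and 3.23 in KO mice. All KO mice were lower, by 0.36 on average (95% interval -0.62 to -0.09, adjusted p = 0.245), which is opposite in sign to eWAT. *Sult1a1* measured 7.06, 6.74, 6.35 and 6.11 in WT and 6.95, 7.14, 6.70 and 7.14 in KO mice, a difference of 0.42 (-0.01 to 0.85). *Sult1e1* differed by 0.29 (adjusted p = 0.395) at a level below the table median. *Gsta4*, far above the median in BAT, differed by 0.01 (-0.18 to 0.19). Without the 3 arrays with high muscle markers, a fit also chosen after seeing the data, 0 enzymes passed and *Mgst2* differed by -0.49 (adjusted p = 0.646).

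*Sult1a1* had a mean above that of WT in all 4 tissues, by 0.78 in eWAT, 0.53 in liver, 0.42 in BAT and 0.33 in iWAT. It passed in eWAT only. Whether the genotype effect differed between tissues was tested directly, as the KO minus WT difference of one tissue less that of another. Between eWAT and liver it differed in 6 enzymes, against 8.53% of all genes. The effect was higher in eWAT for *Gsta3* (by 1.61, adjusted p = 0.0274), *Gstt2* (0.91, adjusted p = 0.0364), *Mgst2* (0.86, adjusted p = 0.0432), *Mgst3* (0.71, adjusted p = 0.0188) and *Ugt3a1* (0.56, adjusted p = 0.0249). It was lower in eWAT for *Gstm7* (-0.70, adjusted p = 0.0324). For *Ugt3a1* the difference was 0.29 in eWAT and -0.27 in liver, for *Gstm7* -0.34 and 0.36, and for *Mgst3* 0.45 and -0.26. As means over all 8 mice, *Ugt3a1* and *Gstm7* were below the table median in eWAT, and *Mgst2* was below it in liver. In WT mice alone *Gstm7* was above it in eWAT. With 1 of the 16 arrays left out, *Mgst3* passed in 16 of 16 fits, *Ugt3a1* in 12, *Gsta3* in 10, *Gstm7* in 8, *Gstt2* in 6 and *Mgst2* in 4.

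For *Gsta4* the difference between eWAT and liver was 1.38 (SE 0.47, adjusted p = 0.0809), for *Gstm1* -0.61 (SE 0.23, adjusted p = 0.114) and for *Sult1a1* 0.25 (SE 0.19, adjusted p = 0.512), so that a difference between tissues was not shown for them. Between eWAT and iWAT 0 enzymes passed, against 0.0243% of all genes, with 7 at an unadjusted p below 0.05, against 9.52% of all genes. The smallest adjusted p was that of *Gstm1* (-0.65, adjusted p = 0.288), and for *Gsta4* the effects of the white depots differed by 0.08 (SE 0.43, adjusted p = 0.971).

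**Figure D5:**
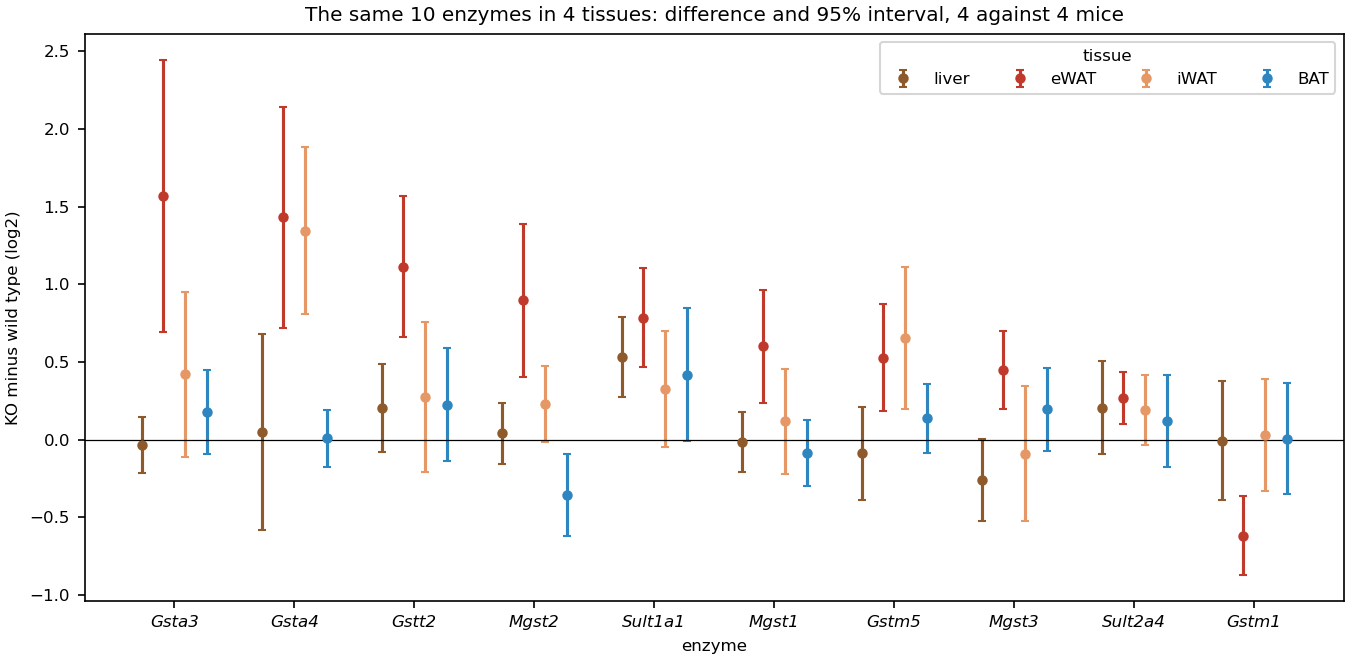
Log2 difference of KO minus WT (points) with its 95% interval from limma (bars) for the 10 enzymes that passed in eWAT, in each of 4 tissues with 4 mice per genotype. eWAT intervals exclude 0 in all 10. Elsewhere they do so for *Gsta4* and *Gstm5* in iWAT, *Sult1a1* in liver and *Mgst2* in BAT, none of which passed after adjustment.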

How the data were processed

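The values are log2 expression as deposited by the authors, with a table for each tissue and a line for each gene symbol, from 100 ng of Trizol-extracted total RNA labelled with biotin. They had averaged several probe sets for 840 genes, none of them an enzyme described here. The software, probe summary and normalization are not given in the sources used here. Entries with a blank or spreadsheet-altered name were left out (1 or 2 per table). Arrays carry no read depth, and 4 mice per group limit the precision. Within each table, limma 3.58.1 in R 4.3.3 (lmFit, eBayes) tested KO against WT arrays, with Benjamini-Hochberg adjustment over 24646 genes, and the code was tested on simulated data. Named were up to 12 rises and 12 falls past the threshold, otherwise the 3 smallest p, and enzymes picked for their roles (*Ugt1a6a* is not analysed here). *Gstp2*, *Ugt1a10*, *Ugt2b37*, *Gstm7* in eWAT and enzymes of a gene cluster or motif match were named after their values were seen. The older symbol *Emr1* stood for *Adgre1*. The enzymes and all lists were chosen with earlier results of these data known. Alternatives were the removal of each array in turn, quantile normalization, equal medians, removal of genes whose mean over 8 arrays was below the table median (dim), array weights, a prior that was trended and robust, a replicate block and the t-test of the methods. Removal of arrays with summed B cell or muscle markers above 8 was chosen after seeing the data. Figures were drawn with matplotlib 3.10.9. No value column was left unmapped. Some results for phase II enzymes outside the families are not reported here.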

Additional observations from a re-analysis of the deposited data

Results flagged for a closer look

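*Gstm1* in eWAT KO replicate 2 lay apart from its group, at 6.27 with the other 3 KO mice between 5.83 and 5.85. It was the only such value among 38 groups of 4 examined, and chance alone marks about 1 group in 20. The genotype effect differed between eWAT and liver for 6 of 55 enzymes by an interaction test in limma, in which 8.53% of all genes differed. *Mgst3* differed by 0.71, *Ugt3a1* by 0.56, *Gsta3* by 1.61, *Gstt2* by 0.91, *Mgst2* by 0.86 and *Gstm7* by -0.70, each as the eWAT effect minus the liver effect on the log2 scale.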

How the results depend on the processing

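In eWAT, where 10 enzymes passed, the count ranged from 3 to 12 with each array left out, was 17 by the methods' t-test without adjustment (27.6% of all genes) and 0 after Benjamini-Hochberg adjustment of that test, which called 38 of all genes. It was 14 with array weights, 11 with a trended and robust prior, 13 after quantile normalization and 9 with equal array medians. Quantile normalization changed the share of all called genes that rose from 30.0% to 48.9%. The median change of the enzymes in eWAT was 0.33 with dim genes left out, of which 21 enzymes remained tested. In liver, where 0 passed, 1 did with a trended and robust prior (*Sult1a1*) and 6 by the unadjusted t-test (0.795% and 11.8% of all genes), and leaving out an array moved the median between -0.046 and 0.0095 (-0.01 with all arrays). In iWAT, 6 passed by the unadjusted t-test (12.8% of all genes), 0 or 1 with an array left out and 1 without the arrays with high B cell markers. In BAT, 2 passed by the unadjusted t-test (11.4% of all genes). Between eWAT and liver, 11 passed with array weights, 10 after quantile normalization and 2 to 11 with an array left out, with 6 otherwise. No value changed sign past the threshold.

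Replicate numbers were not taken to pair WT with KO mice, since the labels give no pairing. The deviations of same-numbered mice correlated by -0.06 to 0.11 in liver and 0.00 to 0.16 in eWAT. In iWAT they correlated by -0.38 to 0.67 and in BAT by 0.01 to 0.22. Mice with different numbers were not compared, so these values do not settle whether the numbers pair mice. With a replicate block, 0, 9, 0 and 0 enzymes passed in liver, eWAT, iWAT and BAT. With the mouse as a block (consensus correlation 0.01), 7 passed between eWAT and liver, and 0 between eWAT and iWAT (0.08).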
